A study of Mus musculus with 12 samples.

Results

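The genes described here are 10 brakes on mitogen-activated protein kinase (MAPK) signalling, 6 dual-specificity phosphatases (Dusp1, Dusp2, Dusp4, Dusp5, Dusp6 and Dusp10) and 4 Sprouty and Spred genes (Spry1, Spry2, Spred1 and Spred2), of 23420 genes listed in the count tables. They were chosen by name, with earlier results of these data known. All 10 passed the filter on low counts, as 12759 genes did. The libraries came from spleen cells of C57BL/6 mice aged 6 to 8 weeks, and the design text of the study calls them naive CD8 T cells carrying OT-I, a transgenic T cell receptor for an ovalbumin peptide, in both genotypes. Fresh wild type and fresh knockout are the untreated groups. Stimulated wild type and stimulated knockout had 24 h with anti-CD3 and anti-CD28 at 1 µg/ml each, antibodies that stand in for antigen and costimulation. The knockout is designed to lack Otub1, a deubiquitinase, through CD4-Cre, a recombinase switched on in developing T cells. Its genotype tag reads OTUB1-DKO, and the labels explain neither the D nor whether the wild type carried Cre. Each group had 3 libraries. Whether they are separate animals is not stated. Reads of Y-linked genes, given below, differed within every group but stimulated wild type, so the libraries of those groups cannot all share the same source animals. Each p-value reflects library-to-library spread, and how much of it is technical is not known. Stimulated cells were cultured and fresh cells are described as fresh, so stimulation and culture cannot be told apart.

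T cell receptor engagement activates Ras and then the kinases Raf, MEK and ERK, and in parallel the kinases JNK and p38. Dual-specificity phosphatases remove phosphate from both the threonine and the tyrosine of the MAPK activation loop, and many are themselves induced by the kinases they switch off. Sprouty proteins act further up, between receptors and Raf, and Spred proteins bring neurofibromin, a Ras GTPase-activating protein encoded by Nf1, to the membrane. In T cells these genes belong to the feedback that limits the strength and length of antigen signals.

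RefSeq promoter windows, 250 bases before to 50 after the transcript start (GRCm38.p6), were matched for 9 of the 10 genes. Those of Dusp1, Dusp2, Dusp5 and Spry1 are shown because they hold the matches described here, or, for Spry1, belong to the gene with the highest fold rise. Capitals mark a match to the cAMP response element (TGACGTCA), to the E-box (CACGTG) or to the CArG box, the site of serum response factor.
Dusp1, chr17:26508423-26508722, minus strand: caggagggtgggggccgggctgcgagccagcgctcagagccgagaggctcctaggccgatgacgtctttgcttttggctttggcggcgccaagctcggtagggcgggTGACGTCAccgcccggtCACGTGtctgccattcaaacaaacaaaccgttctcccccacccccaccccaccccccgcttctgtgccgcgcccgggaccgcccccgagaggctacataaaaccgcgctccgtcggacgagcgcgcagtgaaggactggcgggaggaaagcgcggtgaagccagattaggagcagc
Dusp2, chr2:127335909-127336208, plus strand: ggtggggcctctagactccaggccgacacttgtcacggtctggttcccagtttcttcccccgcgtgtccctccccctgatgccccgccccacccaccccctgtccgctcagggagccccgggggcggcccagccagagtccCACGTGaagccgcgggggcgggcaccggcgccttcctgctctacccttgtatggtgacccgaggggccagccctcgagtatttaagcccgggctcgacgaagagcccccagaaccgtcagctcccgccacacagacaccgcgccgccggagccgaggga
Dusp5, chr19:53528895-53529194, plus strand: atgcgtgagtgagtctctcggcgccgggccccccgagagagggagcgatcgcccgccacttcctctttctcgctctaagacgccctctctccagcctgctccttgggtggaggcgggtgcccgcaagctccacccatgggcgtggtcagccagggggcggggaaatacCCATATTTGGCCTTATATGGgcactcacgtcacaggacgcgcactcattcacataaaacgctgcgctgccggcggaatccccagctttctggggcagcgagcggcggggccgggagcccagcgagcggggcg
Spry1, chr3:37639697-37639996, plus strand: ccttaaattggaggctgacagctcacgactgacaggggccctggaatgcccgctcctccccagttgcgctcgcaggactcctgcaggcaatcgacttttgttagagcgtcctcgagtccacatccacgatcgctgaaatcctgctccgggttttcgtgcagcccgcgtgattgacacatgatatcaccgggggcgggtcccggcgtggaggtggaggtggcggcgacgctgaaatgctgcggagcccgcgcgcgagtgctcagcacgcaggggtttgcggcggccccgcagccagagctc

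Both strands were searched. The cAMP response element was found in the Dusp1 window alone among the 9, at bases -143 to -136 from the start, against 1.79% of 32851 windows of all genes. An E-box stood in the windows of Dusp1 and Dusp2, against 7.15% of all windows. The Dusp5 window held a pair of adjoining CArG boxes, CCATATTTGG at -82 to -73 and CCTTATATGG at -72 to -63, and 1.63% of all windows held at least 1. The GC box GGGCGG, left in small letters, was in 7 of the 9 windows and in 35.7% of all. No member window held TGANTCA (AP-1), CCGGAAG (ETS), GTAAACA (FOXO) or TATAAA, which 7.81%, 8.86%, 3.65% and 13.6% of all windows did. No match overlapped another. The 9 windows held 57% to 72.3% G and C, against a median of 52.7% over all windows. The part of this base composition in the match counts was not tested. A match is a string of letters and not a measured site.

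Depth ranged from 15064488 to 25920035 gene counts per library. Levels are given as CPM, the reads of a gene per 1e+06 of a library's TMM-scaled total. This total counts the genes that passed the filter, times a factor per library between 0.988 and 1.013. Otub1 transcript separated the genotypes without overlap, at 62.8 ± 15.4 against 27.6 ± 1.91 CPM before and 94.0 ± 7.48 against 14.8 ± 1.26 CPM after stimulation, wild type first (mean ± SD, n = 3 here and later). It was thus lowered and not absent in knockout, less so in fresh cells, and the source of the remaining reads was not tested. A cell type tag names splenic dendritic cells. The 6 CD8 T cell markers found in the tables summed to between 4754 and 5096 CPM in the 6 fresh libraries and between 1559 and 1983 CPM in the 6 stimulated ones. Transcripts of other cells were present in fresh libraries and mostly lower after stimulation. The 8 B cell markers summed to 139 to 209 CPM fresh and 23.5 to 34.6 CPM stimulated, the 8 myeloid markers to 204 to 340 and 37.3 to 74.1 CPM, of which Ly6c2, which CD8 T cells also express, gave the most, and the 4 CD4 T cell markers to 24.4 to 34.6 and 8.97 to 15.5 CPM. The 6 NK cell markers summed to 33.0 to 72.8 and 1.06 to 1.95 CPM with Klra4 and Klra8 at 0 counts throughout, and 5 erythroid markers to at most 9.60 CPM with Hba-a1 and Hba-a2 at 0. Of 10 dendritic cell markers 7 fell in each genotype, while their sum went from 301 to 356 CPM up to 508 to 641 CPM through Irf8 and Batf3, which activated T cells also express. Among those that fell, Clec9a went from 20.8 to 0.0794 CPM in wild type. Marker genes are named here after their values were seen. These markers changed with stimulation, mostly downward, and the members changed too, 4 upward and 6 downward in each genotype. The part of the markers in the members' changes was not tested. In such mixed samples fewer cells of a type and less RNA per cell cannot be told apart. Reads of Y-linked genes marked 3 libraries: replicate 3 of the fresh wild type, replicate 2 of the fresh knockout and replicate 3 of the stimulated knockout.

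The first question was how these brakes stand after 24 h of stimulation. All 10 genes changed in wild type, 4 upward (Spry1, Spry2, Dusp4 and Spred1) and 6 downward (Dusp1, Dusp10, Dusp2, Dusp5, Spred2 and Dusp6), by edgeR's quasi-likelihood test. Across all genes tested 40.8% were called higher and 41.4% lower, and 41.8% and 42.3% had no overlap between the states in each direction, so a call alone is common in this comparison and the sizes carry the description. The members' median log2 fold change was −0.73, against −0.03 over all genes tested. By size Spry1 stood at rank 261 and Dusp1 at rank 351 of 12759 genes. The same 4 genes rose and the same 6 fell in the knockout, where 41.7% of all genes were called higher and 42.2% lower, and 42.0% and 42.6% did not overlap. In both genotypes none of the 10 had any overlap between fresh and stimulated libraries.

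**Figure D1:**
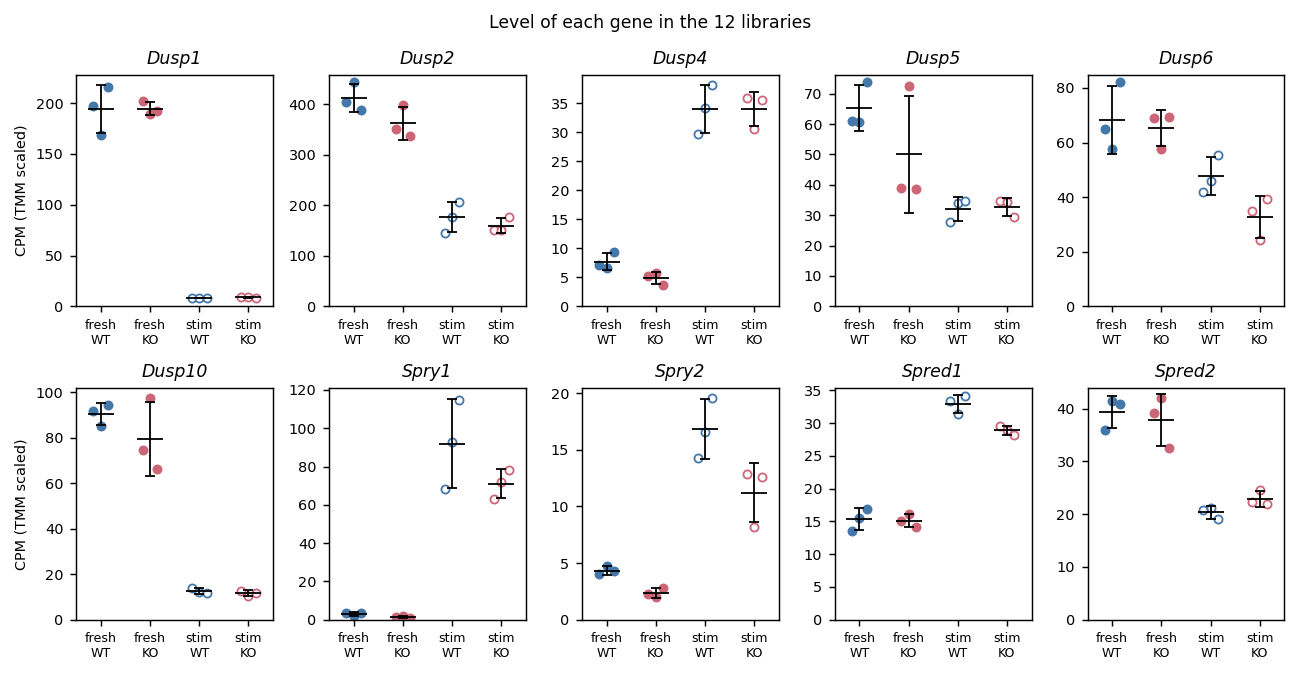
Level of each of the 10 genes in the 12 libraries, in CPM on linear axes from 0. Points are libraries in replicate order, filled for fresh and open for stimulated, blue for wild type (WT) and red for knockout (KO), and bars give mean ± SD of 3. Dusp1 and Dusp10 drop to a low level after stimulation while Spry1 starts near 0 and rises, and in fresh knockout 1 library lies above the others for Dusp5.

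Dusp1 encodes a nuclear phosphatase of the immediate early class that acts mainly on p38 and JNK. It was at 197, 169 and 216 CPM in the fresh wild-type libraries and at 202, 189 and 193 CPM in the fresh knockout. After stimulation it was at 8.37, 8.28 and 8.65 CPM in wild type and at 9.40, 9.42 and 8.18 CPM in knockout. Every stimulated library lay far below every fresh one. The level was 22.9-fold lower in stimulated wild type (95% interval 20.1 to 26.2; log2 fold change −4.52, SE 0.09, edgeR adjusted p = 1.22e-15) and 21.6-fold lower in knockout (19.0 to 24.6; edgeR adjusted p = 9.25e-16). Fos, another immediate early gene, whose transcript can rise within minutes when cells are handled, went from 987 ± 212 to 10.4 ± 1.10 CPM in wild type and from 1155 ± 336 to 10.9 ± 1.60 CPM in knockout, and its part in the Dusp1 difference was not tested. Fos belongs to the list of 15 genes that respond to ERK described below. Of that list 7 rose and 6 fell in stimulated wild type, against 40.8% and 41.4% of all genes. Egr1, a gene of the list named after its values were seen, rose from 129 ± 13.4 to 185 ± 33.1 CPM. An 11-base stretch of the Dusp1 exons overlaps Ergic1 on the other strand.

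Dusp10, which acts on JNK and p38, fell as well. It was at 91.5, 85.3 and 94.5 CPM in fresh wild type and then at 14.1, 12.0 and 11.7 CPM after stimulation, 7.18-fold lower (5.94 to 8.68; edgeR adjusted p = 7.84e-12). In knockout it was at 74.5, 97.5 and 66.3 CPM fresh and at 12.8, 10.4 and 11.8 CPM stimulated, 6.78-fold lower (5.61 to 8.19; edgeR adjusted p = 9.30e-12). Neither genotype had any overlap between its fresh and stimulated libraries.

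Dusp2, also called PAC-1, is a nuclear phosphatase found mainly in blood cells. It was at 406, 444 and 390 CPM in fresh wild type and 146, 178 and 206 CPM in stimulated wild type. In knockout it was at 351, 399 and 337 CPM fresh and 151, 151 and 177 CPM stimulated. The fall was 2.34-fold in wild type and 2.27-fold in knockout (edgeR adjusted p = 1.80e-08 and 2.60e-08), and although it fell, Dusp2 had the highest level per exon length of the 10 genes in all 4 groups.

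Dusp5 and Dusp6 act on ERK, Dusp5 in the nucleus and Dusp6 in the cytoplasm. Dusp5 fell in wild type from 61.0, 60.8 and 74.0 CPM to 27.6, 34.0 and 34.6 CPM, 2.03-fold (1.53 to 2.69; edgeR adjusted p = 0.000126). Dusp6 was at 65.1, 57.8 and 82.0 CPM in fresh wild type and then at 41.8, 45.8 and 55.4 CPM after stimulation. Its fall was 1.43-fold in wild type (1.13 to 1.80; edgeR adjusted p = 0.00675), where the lowest fresh library lay just above the highest stimulated one, and 1.98-fold in knockout (1.57 to 2.50; edgeR adjusted p = 2.83e-05). In knockout Dusp5 fell 1.53-fold (1.16 to 2.02; edgeR adjusted p = 0.00689). Leaving out the libraries with Y-linked reads ended this call (log2 −0.17, edgeR adjusted p = 0.109).

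Dusp4, a nuclear phosphatase induced by ERK, was the phosphatase that rose. It was at 7.11, 6.68 and 9.39 CPM in fresh wild type and then at 29.8, 34.2 and 38.2 CPM after stimulation, 4.44-fold higher (3.57 to 5.53; edgeR adjusted p = 1.36e-09). In knockout it was at 5.19, 5.84 and 3.74 CPM fresh and at 35.8, 30.7 and 35.5 CPM stimulated, 6.90-fold higher (5.51 to 8.65; edgeR adjusted p = 7.02e-11). The stimulated levels of both genotypes averaged 34.0 CPM. All fresh knockout libraries lay below the fresh wild-type ones, as was so for 9.42% of all genes tested. Neither this fresh difference nor its change with stimulation was called (edgeR adjusted p = 0.0881 and 0.142).

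Spry1, a Sprouty inhibitor of the Ras-ERK route, had the highest fold rise of the 10. It was at 3.40, 1.99 and 3.46 CPM in fresh wild type, from 41 to 56 counts per library, and at 68.2, 92.8 and 115 CPM after stimulation. In knockout it was at 1.56, 1.77 and 1.05 CPM fresh, from 22 to 39 counts, and at 63.1, 71.7 and 78.3 CPM stimulated. The rise was 31.9-fold in wild type (23.1 to 44.0; edgeR adjusted p = 4.95e-12) and 48.4-fold in knockout (34.2 to 68.4; edgeR adjusted p = 2.62e-12). Exons of Gm42922 on the other strand cover 710 of the 2906 exon bases of Spry1, and without a stated strand setting reads of the 2 cannot be told apart.

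Its relative Spry2 rose too, from 4.01, 4.75 and 4.26 to 14.3, 16.6 and 19.6 CPM in wild type, 3.86-fold (2.97 to 5.02; edgeR adjusted p = 4.42e-08). In knockout it went from 2.23, 2.04 and 2.83 to 12.8, 8.21 and 12.6 CPM, 4.76-fold (3.59 to 6.31; edgeR adjusted p = 1.78e-08). The Spred genes moved in opposite directions. Spred1 rose from 13.6, 15.5 and 16.9 to 33.4, 31.5 and 34.1 CPM in wild type, 2.15-fold (edgeR adjusted p = 4.23e-09), and 1.91-fold in knockout. Spred2 fell from 35.9, 41.4 and 40.9 to 20.8, 21.2 and 19.0 CPM in wild type, 1.94-fold (edgeR adjusted p = 1.30e-07), and 1.65-fold in knockout (edgeR adjusted p = 2.65e-08 for Spred1 and 2.48e-06 for Spred2).

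**Figure D2:**
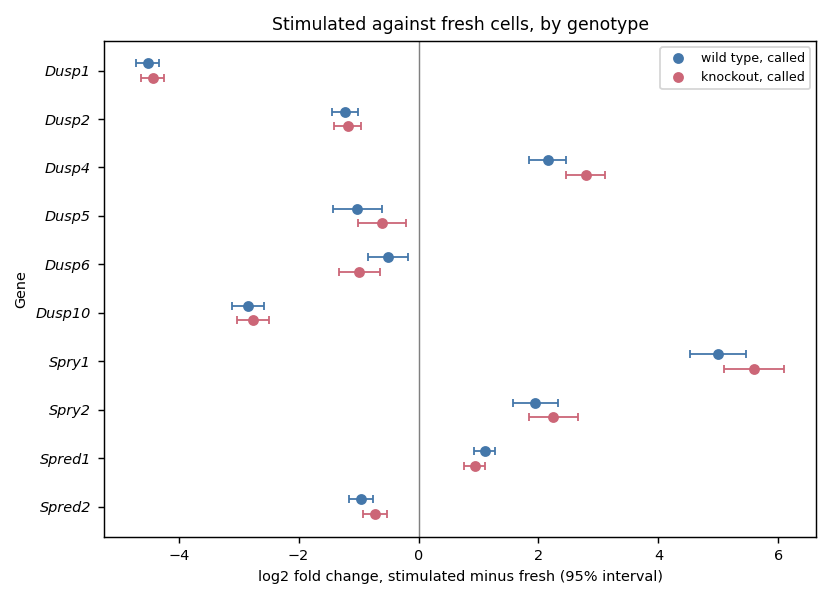
Log2 fold change of each gene after stimulation, stimulated minus fresh, in wild type (blue) and knockout (red), with 95% intervals of the edgeR fit. All points are filled because all were called, and they reach from −4.52 for Dusp1 to 5.60 for Spry1.

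Levels of different genes were compared per kilobase of exon (CPM per kb). In fresh wild type Dusp2 was at 206 CPM per kb and made up 57.4% ± 4.10 of the sum over the 10 genes, followed by Dusp1 with 16.3% ± 1.92. Spry1 was last with 0.283% ± 0.0805. After stimulation of wild type Dusp2 kept the first place with 47.7% ± 0.684, Spry1 came to second with 17.0% ± 1.74, and Dusp1 was last with 1.40% ± 0.206. The 4 Sprouty and Spred genes together held 3.86% ± 0.189 of the sum in wild type and 3.76% ± 0.156 in knockout before stimulation. Afterwards they held 26.5% ± 0.828 and 24.2% ± 0.752, and no stimulated library came near a fresh one. The sum itself went from 360 ± 6.12 to 184 ± 29.0 CPM per kb in wild type and from 321 ± 27.2 to 162 ± 11.1 CPM per kb in knockout. CPM is relative to the TMM-scaled total of each library, so an amount per cell is not given by these values.

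**Figure D3:**
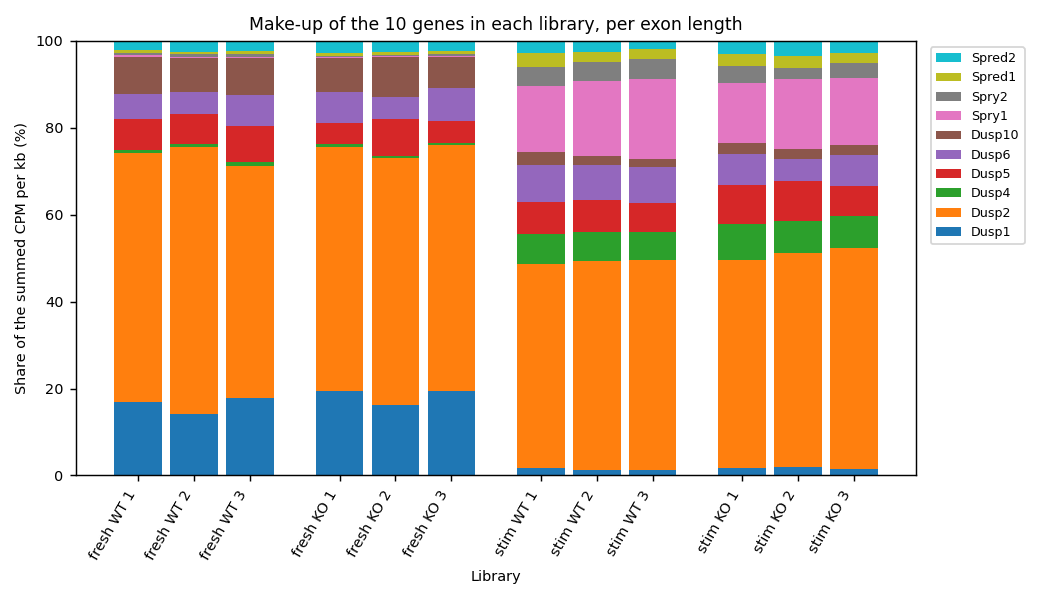
Share of each gene in the summed CPM per kb of the 10 genes, 1 bar per library, in percent. Dusp2 (orange) is the widest band throughout, Dusp1 (blue) and Dusp10 (brown) shrink after stimulation, and Spry1 (pink) appears after stimulation, with 17.0% in wild type and 15.1% in knockout.

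The next question was how these genes differed between knockout and wild type in fresh cells. None of the 10 was called by edgeR, where 0.980% of all genes were called higher and 0.219% lower. At an unadjusted p under 0.05 there were 3 lower, Spry1, Spry2 and Dusp4, and none higher (background 6.57% lower and 7.56% higher). These are the 3 whose knockout libraries all lay below the wild-type libraries, as 9.42% of all genes did. DESeq2 called the same 3 lower and none higher, where it called 0.949% of the genes it tested lower and 1.98% higher. By limma-voom, which called 0.384% lower and 1.18% higher, no member was called. The estimate was below 0 for 9 of the 10 genes, with a median log2 fold change of −0.19 against −0.000178 over all genes tested.

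Spry2 averaged 4.34 ± 0.375 CPM with and 2.37 ± 0.412 CPM without Otub1 (log2 fold change −0.88, 95% interval −1.34 to −0.42, edgeR adjusted p = 0.0647; DESeq2 adjusted p = 0.00655). Dusp4 was at 7.73 ± 1.45 and 4.92 ± 1.08 CPM (log2 difference −0.64 with SE 0.17, edgeR adjusted p = 0.0881; DESeq2 adjusted p = 0.00914). For Spry1 the means were 2.95 ± 0.835 and 1.46 ± 0.365 CPM (log2 fold change −0.98, −1.69 to −0.26, edgeR adjusted p = 0.196; DESeq2 adjusted p = 0.0493). With a term for sex in the edgeR fit Dusp4 was called (adjusted p = 0.0470), and without the filter on low counts Spry2 and Dusp4 were (edgeR adjusted p = 0.0196 and 0.0365). A fit to the 2 fresh groups alone called Spry2 (edgeR adjusted p = 0.0417).

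Dusp5 depended on 1 library. It was at 39.0, 72.4 and 38.7 CPM in fresh knockout, so replicate 2, a library with Y-linked reads, lay at the wild-type level and the other two below all wild-type libraries (log2 fold change −0.38, −0.77 to 0.02, edgeR adjusted p = 0.382). Dropping that library gave −0.74 on the log2 scale (edgeR adjusted p = 0.00516), and dropping all 3 libraries with Y-linked reads gave −0.64 (edgeR adjusted p = 0.00824). Exons of the antisense gene AC137853.2 cover 547 of the 2473 exon bases of Dusp5, and the reads of the 2 cannot be told apart without a strand setting. Dusp10 had its highest fresh value in the same library, 97.5 CPM, while the other two, at 74.5 and 66.3 CPM, lay below all wild-type libraries. Its log2 difference was −0.19 (edgeR adjusted p = 0.493) and became −0.36 without that library (edgeR adjusted p = 0.0576), or −0.32 when all libraries with Y-linked reads were dropped (edgeR adjusted p = 0.187). In fresh wild type the library with Y-linked reads, at 74.0 CPM, was likewise the highest for Dusp5, while in stimulated knockout it was the lowest, at 29.3 CPM. For the remaining genes, none of them called, the 95% intervals of the log2 difference were −0.14 to 0.15 for Dusp1, −0.20 to 0.16 for Spred1, −0.25 to 0.14 for Spred2, −0.39 to 0.27 for Dusp6 and −0.41 to 0.03 for Dusp2.

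In stimulated cells 2 of the 10 genes were lower in knockout, Spry2 and Dusp6, and none was higher, where 4.22% of all genes were called lower and 5.08% higher. Before adjustment 4 members were lower and none higher at p under 0.05, against 10.9% and 12.8% of all genes. Spry2 was at 16.8 ± 2.66 CPM in wild type against 11.2 ± 2.60 in the knockout (log2 difference −0.58 with SE 0.16, edgeR adjusted p = 0.0307). Dusp6, not called in fresh cells, was at 41.8, 45.8 and 55.4 CPM in wild type against 35.1, 24.3 and 39.2 in the knockout (log2 difference −0.53 with SE 0.16, edgeR adjusted p = 0.0480). All knockout libraries lay below all wild-type libraries for both genes and for Spred1, as 13.1% of all genes did. By limma-voom both were called lower and by DESeq2 Spry2 alone, where these tools called 4.10% and 5.00% of genes lower and 5.88% and 5.90% higher. Spry2 lies on chromosome 14, chr14:105891947-105896819 on the minus strand, and Dusp6 at chr10:99263231-99267489 on the plus strand (GENCODE M21, GRCm38), both as protein-coding genes whose exons overlap no other gene. Both calls were near the threshold. Each was lost without wild-type replicate 2 (edgeR adjusted p = 0.0733 for Spry2 and 0.0904 for Dusp6), wild-type replicate 3 (0.160 and 0.221) or knockout replicate 2 (0.0869 and 0.147), and that of Dusp6 also without knockout replicate 1 (0.0780) and with DESeq2 (adjusted p = 0.0632). A fit to the 2 stimulated groups alone also lost both (edgeR adjusted p = 0.0717 and 0.0689). In knockout replicate 2 both genes had their lowest stimulated value. CD8 T cell markers were also lower in stimulated knockout, 3 of 6 by edgeR, with sums of 1559 to 1721 CPM against 1878 to 1983 CPM in wild type. Of 10 dendritic cell markers 2 were called higher, and 4 had estimates below 0. Of 8 myeloid markers 1 was called lower. Batf3 averaged 16.7 CPM in wild type and 32.2 in knockout, and Ly6c2, most of the myeloid sum, 65.8 and 39.5. Activated or CD8 T cells also express these 2 genes, named after their values were seen. The part of all these markers in the Spry2 and Dusp6 differences was not tested.

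Spry1 averaged 92.0 ± 23.4 CPM with and 71.0 ± 7.60 CPM without Otub1 after stimulation and was not called (log2 fold change −0.38, −0.70 to −0.05, edgeR adjusted p = 0.148). Leaving out wild-type replicate 1, its lowest library, made it a call (log2 −0.55, edgeR adjusted p = 0.0166). Spred1 was at 33.0 ± 1.38 and 28.9 ± 0.672 CPM (log2 fold change −0.19, −0.36 to −0.02, edgeR adjusted p = 0.151). Spred2 was the gene with knockout libraries all above wild type, as 14.3% of all genes were, at 22.2, 24.6 and 21.9 against 20.8, 21.2 and 19.0 CPM (log2 fold change 0.17, −0.03 to 0.38, edgeR adjusted p = 0.304). The 95% intervals of the log2 difference for the others were −0.14 to 0.32 for Dusp1, −0.37 to 0.08 for Dusp2, −0.27 to 0.27 for Dusp4, −0.38 to 0.44 for Dusp5 and −0.40 to 0.19 for Dusp10.

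**Figure D4:**
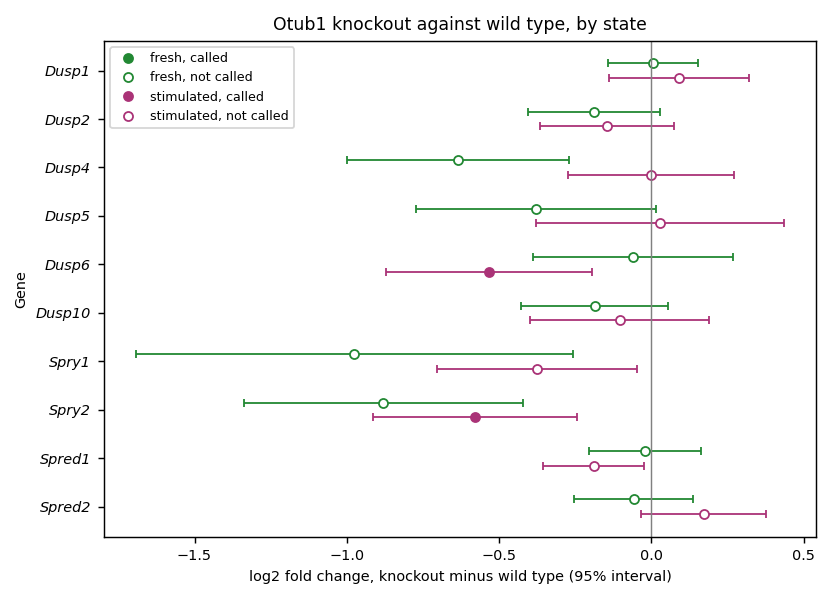
Log2 fold change of each gene in knockout against wild type, in fresh (green) and stimulated cells (purple), with 95% intervals of the edgeR fit. Filled points, Spry2 and Dusp6 in stimulated cells, were called. Estimates lie left of 0 for 9 genes in fresh and 7 in stimulated cells, the Sprouty genes among them in both states.

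Whether the genotype difference changed with stimulation was tested as an interaction, and no member was called by edgeR, DESeq2 or limma-voom, where edgeR called 0.698% of all genes higher and 1.56% lower, DESeq2 1.87% and 3.40%, and limma-voom 0.627% and 1.45%. At an unadjusted p under 0.05, which 7.60% of genes passed upward and 8.75% downward, edgeR gave 1 higher, Dusp4 (log2 difference 0.64, 0.18 to 1.09, edgeR adjusted p = 0.142), and 1 lower, Dusp6 (−0.47, SE 0.22, edgeR adjusted p = 0.306). For Spry2 the difference between the states was 0.30 with a 95% interval of −0.26 to 0.87. Without fresh knockout replicate 2 the interaction of Dusp5 was called (0.77, edgeR adjusted p = 0.0173), as it was without the libraries with Y-linked reads (0.75, edgeR adjusted p = 0.0256).

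The rest of the pathway was described from lists of related genes. With stimulation of wild type edgeR called 40.8% of all genes higher and 41.4% lower. Counts of genes that rose or fell in these lists are to be read against these shares. In stimulated knockout the shares were 5.08% and 4.22%, and in fresh knockout 0.980% and 0.219%. Of 3 further MAPK phosphatases tested, Dusp16, which acts on JNK and p38, rose with stimulation of wild type from 8.63 ± 0.0579 to 18.9 ± 1.36 CPM and Dusp7, which acts on ERK, fell from 60.7 ± 2.19 to 28.0 ± 1.53 CPM (edgeR log2 fold changes 1.13 and −1.12). Of 10 atypical phosphatases, smaller enzymes without the MAPK docking domain, 3 rose and 5 fell, and Spry4 rose from 1.32 ± 0.366 to 3.67 ± 1.12 CPM. None of these 3 MAPK phosphatases, 10 atypical phosphatases or 2 other Sprouty and Spred genes was called by edgeR for genotype in either state. Unadjusted, 1 of these 15 was lower in fresh and 2 were higher in stimulated knockout at p under 0.05, which 6.57% and 12.8% of all genes were. Neither DESeq2 nor limma-voom called any.

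Of 18 genes of the Ras-ERK cascade, 6 rose and 7 fell with stimulation of wild type. Rasgrp2, an exchange factor for Rap and Ras, fell from 389 ± 14.2 to 17.3 ± 0.515 CPM (log2 fold change −4.50), and Ksr1, a scaffold of the cascade, rose to 40.7 ± 2.54 CPM (log2 fold change 1.53). In stimulated knockout, where 5.08% of all genes were called higher and 4.22% lower, 3 of the 18 rose and none fell: Map2k1, the kinase MEK1, from 95.7 ± 7.06 to 131 ± 15.4 CPM (log2 difference 0.45 with SE 0.08, edgeR adjusted p = 0.00213), Mapk3, the kinase ERK1, from 24.5 ± 2.00 to 30.4 ± 3.07 CPM (edgeR adjusted p = 0.0307), and Nras, a Ras gene named after its values were seen, from 174 ± 3.02 to 199 ± 9.65 CPM. The list's median log2 fold change was 0.01, against 0.00 over all genes. In fresh cells 0 of the 18 were called by edgeR, DESeq2 or limma-voom, and 1 was higher at p under 0.05 before adjustment, as 7.56% of all genes were.

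Of 10 other brakes on Ras, 6 rose and 4 fell with stimulation of wild type, with Dab2ip, a Ras GTPase-activating protein, up from 1.31 ± 0.253 to 7.83 ± 0.593 CPM and Rasa3, another, down from 538 ± 11.2 to 74.8 ± 6.73 CPM. Nf1, whose product works with the Spred proteins, was higher in fresh knockout, at 29.1 ± 2.14 against 22.9 ± 0.366 CPM (log2 difference 0.34 with SE 0.06, edgeR adjusted p = 0.0185). In stimulated knockout Rasa1, the p120 Ras GTPase-activating protein, fell to 151 ± 3.86 from 203 ± 9.62 CPM (log2 difference −0.42 with SE 0.04, edgeR adjusted p = 9.92e-05) and Dab2ip rose to 10.5 ± 0.647 CPM (edgeR adjusted p = 0.0325), a call that DESeq2 did not make. The genotype difference of Rasa1 changed with stimulation (interaction −0.31, edgeR adjusted p = 0.0203).

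Of 15 genes that respond to ERK, 7 rose and 6 fell in stimulated wild type. In stimulated knockout 2 rose, the survival-related Ier3 from 3.47 ± 0.147 to 13.1 ± 3.09 CPM and Junb, an AP-1 subunit, from 130 ± 15.8 to 180 ± 15.3 CPM, and 2 fell, Egr3 from 63.9 ± 6.91 to 45.4 ± 5.91 CPM and Egr2 from 106 ± 16.5 to 80.6 ± 9.52 CPM (edgeR adjusted p = 0.00450 for Junb, 0.00830 for Egr3 and 0.0435 for Egr2). Junb in this comparison and Egr2 were named after their values were seen. The genotype difference of Junb changed with stimulation (interaction 0.73, edgeR adjusted p = 0.00886), and in fresh cells, where it was not called, its log2 difference was −0.25 (edgeR adjusted p = 0.190). None of the 15 was called in fresh cells by edgeR or limma-voom. At an unadjusted p under 0.05 edgeR had 3 higher and 1 lower, against 7.56% and 6.57% of all genes. DESeq2 called 2 higher, against 1.98% of the genes it tested. Of 16 genes of the JNK and p38 cascades 6 rose and 5 fell with stimulation of wild type, with Map2k3, a kinase that activates p38, up from 34.2 ± 0.840 to 120 ± 15.7 CPM and Map2k6, its relative, down from 12.5 ± 0.336 to 2.98 ± 0.203 CPM. None of the 16 was called for genotype by edgeR in fresh cells (1 higher and 3 lower at an unadjusted p under 0.05, against 7.56% and 6.57% of all genes; DESeq2 and limma-voom 0) or in stimulated cells (2 higher and 3 lower, against 12.8% and 10.9% of all genes; DESeq2 and limma-voom 1 lower each).

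The genes most like each member over the 12 libraries were taken by Pearson correlation of log2 CPM among 9455 genes. The libraries fall into 2 states, so that these values mostly describe the step between fresh and stimulated cells. Closest to Dusp1 were Tmem63a, Lrrc8c and Rasgrp2 (r = 0.999 for each), and to Dusp10 Elf2, Ssh2 and Arid5b (0.999, 0.998 and 0.998). For Spry1 these were Trmt10c, Scpep1 and Snhg4, and for Dusp4 Hpdl, Ado and Snhg4 (0.994, 0.992 and 0.992). Spry2 stood closest to Crcp, Ubtf and G6pc3, Spred1 to Ppip5k2, Ccnh and Vmp1, Spred2 to Acvr2a, Jmy and B4galt1, and Dusp2 to Pja1, Scfd2 and Zfp319. The lowest best match was that of Dusp6, with Usp30 at 0.956, and Dusp5 came next with Rnf220 at 0.963.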

How the data were processed

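Messenger RNA was measured by RNA sequencing in 12 libraries in 4 groups of 3, grouped by their source labels. Replicate numbers were given in accession order, only name a library and pair nothing. The authors deposited raw read counts per gene, 1 table per library. The tools named in the submitters' processing notes are HTSeq, TopHat, TopHat2 and DESeq2, with the mouse build mm10. The strandedness of counting, like tool versions and annotation, was not given in the sources used here. The 5 HTSeq summary lines of each table, 5.22% to 6.43% of its total, were left out.

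Counts were fitted in R 4.3.3 with edgeR 4.0.16: genes kept by filterByExpr (12759 of 23420), TMM scaling, a quasi-likelihood model with 1 coefficient per group over all 12 libraries, and Benjamini-Hochberg adjustment over all genes tested. A gene was called at an adjusted p under 0.05, two-sided. Standard errors were taken from the F statistic, and 95% intervals from these and the total degrees of freedom of the fit, residual plus prior. The procedure was tested on simulated data. Alternatives were DESeq2 (1.42.0), limma-voom (limma 3.58.1), other size factors, no filter, a fit to 2 groups, a term for sex, leaving out libraries with Y-linked reads, and leaving out each library.

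Counts per kilobase used the union of exons in GENCODE M21 (GRCm38). Promoters came from RefSeq (GRCm38.p6). The members, the other lists and the tests were chosen with earlier results of these data known. The motifs were chosen after the values were seen. All 10 members are named. From each other list, up to 2 called genes with the largest changes per comparison may be named, and further ones are marked where they appear. For likeness the rule took the 3 genes with the highest Pearson correlation per member.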

Additional observations from a re-analysis of the deposited data

How the results depend on the processing

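Among 260 values of members for stimulation under the alternatives, 259 kept direction and call, the exception being Dusp5 in knockout without the libraries with Y-linked reads. Among 440 values for genotype and the interaction, 394 did. Members called lower in fresh knockout (0) came to 3 with DESeq2, 2 without the filter, 1 in the fit to 2 groups, 1 with a term for sex, 1 without the libraries with Y-linked reads, and 0 to 1 leaving out each library. Members called lower in stimulated knockout (2) came to 1 with DESeq2, 0 in the fit to 2 groups and 0 to 3 leaving out each library. For the interaction, members called higher (0) came to 1 without the libraries with Y-linked reads and 0 to 1 leaving out each library. Counts over all genes were 153 in fresh knockout (330 with DESeq2, 245 without the filter, 93 without the libraries with Y-linked reads, 28 to 190 leaving out each library), 288 for the interaction (555, 443 and 125 in that order, and 133 to 356) and 1187 in stimulated knockout (518 to 1313 leaving out each library). The share of higher genes among calls in fresh knockout, 81.7% (125 higher, 28 lower), was 53.4% (87 and 76) without fresh knockout replicate 2, 58.1% (54 and 39) when all libraries with Y-linked reads were dropped, 71.4% (20 and 8) without fresh wild-type replicate 2 and 67.6% with DESeq2, and reached 91.4% without fresh knockout replicate 1. The cause of these shifts was not tested.

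Directions turned only for differences that were not called, none larger than 0.18. In stimulated knockout Dusp4 was 0.00326 with limma-voom, 0.00222 without the filter and 0.000981 in the fit to 2 groups, and Dusp5 was −0.0761 with a term for sex. In fresh knockout Dusp6 was 0.178 and Spred1 0.00310 without the libraries with Y-linked reads. Leaving out each library gave, in fresh knockout, −0.0771 to 0.0945 for Dusp1, −0.161 to 0.0947 for Dusp6, −0.0939 to 0.0541 for Spred1 and −0.136 to 0.0476 for Spred2. It gave, in stimulated knockout, −0.0882 to 0.0901 for Dusp4 and −0.0679 to 0.102 for Dusp5, and, for the interaction, −0.0751 to 0.172 for Dusp2 and −0.0355 to 0.258 for Dusp10. No paired analysis was possible because the groups compared share fewer than 2 numbers in their labels.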

Other observations

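With a term for the 3 libraries with Y-linked reads, estimates were positive for all 10 members and for 50.6% of all genes tested. None was called by edgeR (19 genes were, over all genes). At an unadjusted p under 0.05 there were 3 members higher, against 3.39% of all genes: Dusp5 (log2 difference 0.35, SE 0.13), Dusp10 (0.23, SE 0.08) and Dusp4 (0.26, SE 0.11), with edgeR adjusted p of 0.634, 0.604 and 0.748. DESeq2 and limma-voom were not run with this term.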
